A study of Mus musculus with 8 samples.

Results

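The genes described here are 10 regulators of the passage from G1 into S phase: the D cyclins Ccnd1, Ccnd2 and Ccnd3, their kinases Cdk4 and Cdk6, the E cyclins Ccne1 and Ccne2, the transcription factor E2f1, the retinoblastoma gene Rb1 and the proto-oncogene Myc. They were chosen by name, with earlier results of these data known. All 10 were among the 24421 gene symbols of the count table and among the 12985 genes with enough reads to be tested. RNA came from perfused liver of C57BL/6N mice of 8 to 10 weeks of age, in 4 libraries labelled CAPZ_KO and 4 labelled WT. CAPZ_KO livers carried Albumin-CreERT2 and Capzb-fl/fl and had received tamoxifen on 5 consecutive days from an age of 4 to 6 weeks, which removes part of Capzb, a subunit of the actin capping protein, in cells in which the albumin promoter is active. WT livers also carried Capzb-fl/fl and were of 2 kinds, injected animals without the recombinase and uninjected animals with it, and the labels do not tell them apart. How far injection itself moved a gene was not tested. The labels do not say that each library comes from its own animal. Each group held libraries of both sexes, as given below, so that neither came from a single animal. The p-values cover the spread among libraries, part of which may be technical.

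D cyclins are made in response to growth signals and bind the kinases CDK4 and CDK6, which phosphorylate RB1. Phosphorylated RB1 releases E2F transcription factors, which turn on the genes of DNA replication and the E cyclins, the partners of CDK2. MYC binds DNA with MAX and turns on genes of growth, among them those of ribosome synthesis. Adult hepatocytes are mostly quiescent, and cyclin D1 is the D cyclin best known for rising when they re-enter the cycle after injury or resection.

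Libraries held 13122355 to 16984971 counts in CAPZ_KO and 12060350 to 18916315 in WT. Capzb stood at 72.5 ± 6.80 CPM in CAPZ_KO and 120.2 ± 13.4 CPM in WT (SD, n = 4 each; CPM, the read count relative to the TMM-adjusted size of the library, sets the bulk of genes level between libraries), without overlap, and its log2 fold change was −0.73 (edgeR adjusted p = 0.00134). The counts of Capzb cover the deleted and the remaining part of the gene together. CAPZ_KO 4 and WT 4 had Xist at 249.3 and 297.3 CPM before TMM scaling and no count of 4 Y-linked genes, so that each group held 1 female library and 3 male ones. Summed hepatocyte markers, with Alb among them, were at 49152 to 70340 CPM in CAPZ_KO and 178193 to 233946 CPM in WT, and 8 of 10 fell. By the same edgeR call, at an adjusted p under 0.05, 22.4% of all genes tested rose and 19% fell. Of the marker lists of other cells, 5 of 8 cholangiocyte, 8 of 9 stellate cell and fibroblast and 6 of 7 monocyte-derived macrophage genes rose. Their summed levels were 369.6 to 1089.9, 877.4 to 1366.9 and 451.0 to 1232.1 CPM in CAPZ_KO, against 43.0 to 80.0, 356.8 to 426.4 and 51.5 to 78.4 CPM in WT, and Spp1 is in both the first and the last of these lists. Of 8 Kupffer cell and macrophage genes 4 rose (summed level 1302.2 to 3900.1 CPM in CAPZ_KO, 574.2 to 1618.5 CPM in WT), of 8 endothelial genes 2 (343.7 to 542.0 and 287.9 to 455.0 CPM) and of 4 neutrophil genes 2 (30.0 to 51.9 and 10.0 to 34.7 CPM). The endothelial share that rose, 25.0%, was near that of all genes. T and NK cell genes summed to 10.8 to 19.9 CPM in CAPZ_KO and 5.3 to 22.8 CPM in WT, and B and plasma cell genes to 14.9 to 26.7 and 5.9 to 31.5 CPM, with overlap in both lists. Among erythroid genes, 3 globins were at 0 in every library, and the 5 genes summed to 7.4 to 12.3 CPM in CAPZ_KO and 16.5 to 142.4 CPM in WT. In such whole-tissue RNA a change in the number of cells of a type and a change in RNA per cell cannot be told apart, and the part of cell makeup in the results below was not tested.

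Of the 10 genes, 3 rose in CAPZ_KO and 0 fell at an adjusted p under 0.05 by the edgeR quasi-likelihood test (adjusted over all genes tested): E2f1, Cdk4 and Ccnd1. Among all genes tested, 41.4% were called by the same rule, 22.4% higher and 19% lower, so that the share of the 10 that rose, 30.0%, was near the background. No member fell at an unadjusted p under 0.05, nor by DESeq2 or limma-voom. The libraries of both groups did not overlap in 2 of the 10, Cdk4 and E2f1, both with CAPZ_KO above WT, against 40.3% of all genes tested, of which those with CAPZ_KO above WT made up 22.1% of all. The median log2 fold change of the 10 was 0.65, and that of all genes tested was −0.003. CAPZ_KO 3 had the highest level of its group in 7 of the 10 genes, and WT 1 had the lowest of its group in 5.

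**Figure D1:**
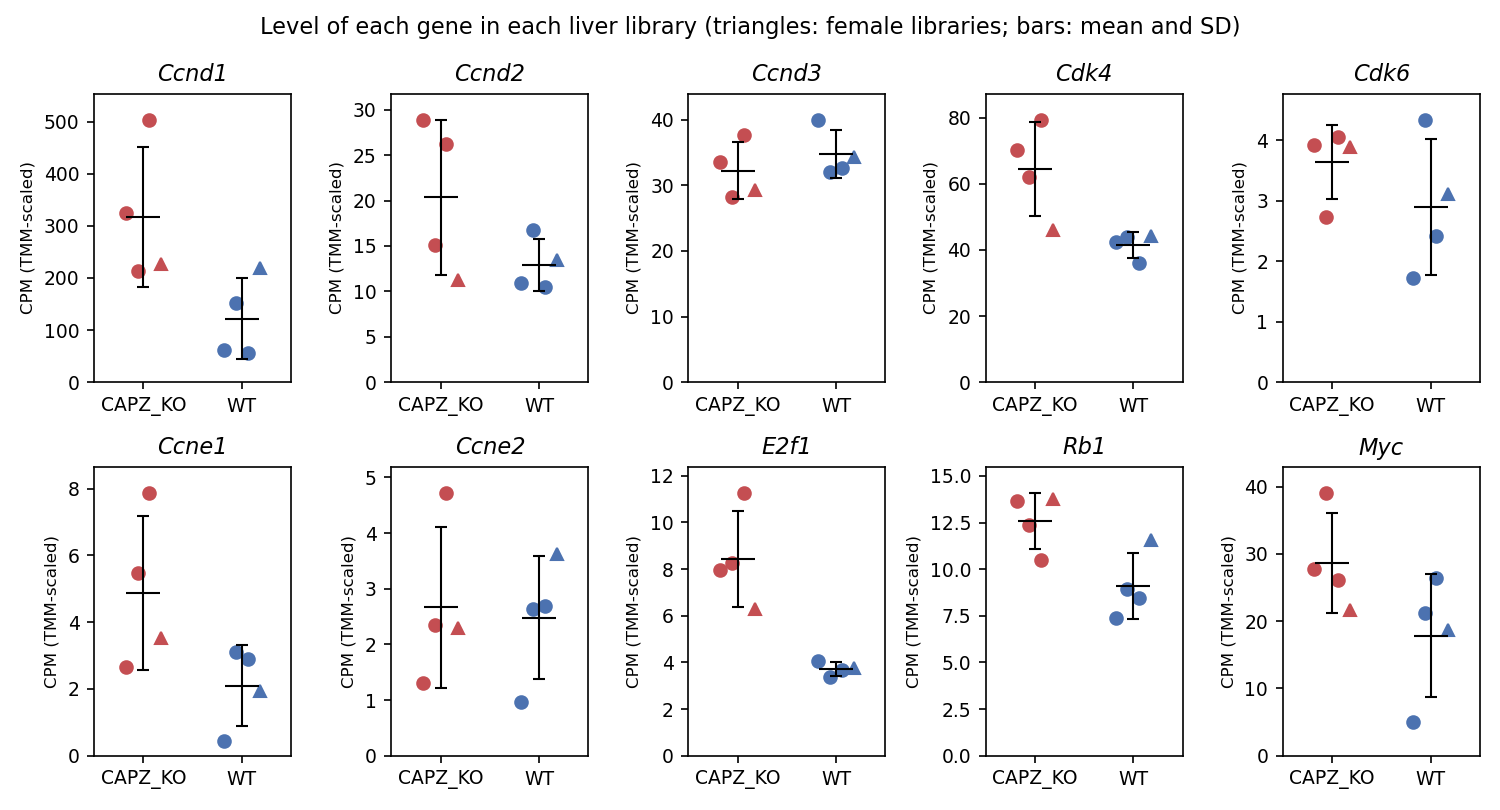
Level of each of the 10 genes in each library, in CPM after TMM scaling on linear axes from 0, CAPZ_KO left of WT, with mean and SD as bars and female libraries as triangles. The groups stand apart for Cdk4 and E2f1, while in Ccnd1 the highest WT library, at 218.2 CPM, lies above the lowest CAPZ_KO library, at 212.6 CPM.

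Ccnd1, the gene of cyclin D1 (chromosome 7, 144929931 to 144939925, minus strand, GRCm38), had 323.8, 212.6, 503.5 and 227.1 CPM in CAPZ_KO 1 to 4, against 62.3, 152.3, 55.0 and 218.2 CPM in WT 1 to 4. WT libraries spread over a wide range, with WT 1 and WT 3 low, and WT 4 within the CAPZ_KO range. Ccnd1 rose by 1.38 ± 0.472 on the log2 scale (SE; 95% interval 0.31 to 2.44), with means of 316.7 ± 133.9 CPM in CAPZ_KO and 122.0 ± 78.0 CPM in WT (SD, n = 4 each), with an edgeR adjusted p of 0.0426. The call was lost when any library but CAPZ_KO 2 or WT 4 was left out, with edgeR adjusted p of 0.0525 to 0.115 and log2 fold changes of 1.03 to 1.5. It was also lost with no filter on low counts (adjusted p = 0.0781).

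Ccnd2, the gene of cyclin D2 (chromosome 6, 127125162 to 127152193, minus strand), had 28.9, 15.1, 26.2 and 11.2 CPM in CAPZ_KO 1 to 4, against 10.9, 16.7, 10.4 and 13.4 CPM in WT 1 to 4. CAPZ_KO 1 and CAPZ_KO 3 lay above every WT library, and CAPZ_KO 2 and CAPZ_KO 4 lay among them. Its log2 fold change was 0.66 ± 0.297 (SE; 95% interval −0.01 to 1.32), with an edgeR adjusted p of 0.102. Without CAPZ_KO 4 it was 0.85, with an adjusted p of 0.0231. Ccnd3, the gene of cyclin D3 (chromosome 17, 47505051 to 47599691, plus strand), had 33.6, 28.2, 37.7 and 29.4 CPM in CAPZ_KO 1 to 4, against 40, 32.1, 32.6 and 34.3 CPM in WT 1 to 4. CAPZ_KO 2 and CAPZ_KO 4 lay below every WT library, and CAPZ_KO 1 and CAPZ_KO 3 lay among them. The log2 fold change of Ccnd3 was −0.11 ± 0.134 (SE; 95% interval −0.41 to 0.19), with an edgeR adjusted p of 0.542.

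Per length of their exons, the 3 D cyclins together stood at 73.1 ± 29.6 CPM per kb in CAPZ_KO and 31.2 ± 16.6 CPM per kb in WT (SD, n = 4 each). Ccnd1 made up 91.6% ± 1.51 of that sum in CAPZ_KO and 79.0% ± 10.2 in WT (SD, n = 4 each). Its share was 90.9%, 90.3%, 93.8% and 91.4% in CAPZ_KO 1 to 4, against 69.8%, 85.6%, 70.8% and 89.7% in WT 1 to 4, so that every CAPZ_KO library lay above every WT library. Ccnd3 made up 5.4% ± 1.25 in CAPZ_KO and 16% ± 8.53 in WT, and Ccnd2 3% ± 0.822 and 5.08% ± 1.76 (SD, n = 4 each). Lengths are those of all annotated exons joined, and isoforms in use may be shorter.

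Cdk4, the gene of a kinase partner of the D cyclins (chromosome 10, 127063534 to 127067920, plus strand), had 70.4, 62.0, 79.4 and 46.2 CPM in CAPZ_KO 1 to 4, against 42.3, 44.0, 35.9 and 44.3 CPM in WT 1 to 4. Every CAPZ_KO library lay above every WT library, CAPZ_KO 4 by the smallest margin. Cdk4 rose by 0.63 ± 0.167 on the log2 scale (SE; 95% interval 0.26 to 1.00), with means of 64.5 ± 14.1 CPM in CAPZ_KO and 41.6 ± 3.90 CPM in WT (SD, n = 4 each) and an edgeR adjusted p of 0.0127. Without CAPZ_KO 3 the log2 fold change was 0.48 and the adjusted p 0.0509. Exons of Cdk4 overlap those of Tspan31 on the opposite strand, and Tspan31 fell by 0.50 on the log2 scale, with 229.7 ± 49.1 CPM in CAPZ_KO and 325.8 ± 43.5 CPM in WT (SD, n = 4 each; edgeR adjusted p = 0.0391). Cdk6, the gene of the related kinase (chromosome 5, 3341485 to 3531008, plus strand), had 3.92, 2.74, 4.05 and 3.89 CPM in CAPZ_KO 1 to 4, against 1.72, 4.34, 2.41 and 3.11 CPM in WT 1 to 4. The highest library of all was WT 2. Its log2 fold change was 0.32 ± 0.290 (SE; 95% interval −0.33 to 0.96), with an edgeR adjusted p of 0.409, and it was 0.14 without WT 1 and 0.57 without WT 2. Per exon length Cdk4 made up 98.7% ± 0.396 of both kinases in CAPZ_KO and 98.4% ± 0.535 in WT (SD, n = 4 each).

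RefSeq promoter windows (GRCm38.p6) were found for 5 of the 10 genes: Ccnd3, Cdk4, Cdk6, Ccne1 and E2f1. The window of Cdk4 is shown because Cdk4 rose while Myc was not called, and Cdk4 is a known target of MYC, which binds the E-box CACGTG. Beside it stands that of Cdk6, which was not called. The 250 bases before each start site are written 5′ to 3′ on the strand of the gene, with each CACGTG in capitals. The window of Cdk4 lies at chr10:127063285-127063534 and that of Cdk6 at chr5:3343643-3343892, both on the plus strand. The Cdk6 window lies inside the GENCODE bounds of the gene given above, downstream of the first base annotated there.
Cdk4: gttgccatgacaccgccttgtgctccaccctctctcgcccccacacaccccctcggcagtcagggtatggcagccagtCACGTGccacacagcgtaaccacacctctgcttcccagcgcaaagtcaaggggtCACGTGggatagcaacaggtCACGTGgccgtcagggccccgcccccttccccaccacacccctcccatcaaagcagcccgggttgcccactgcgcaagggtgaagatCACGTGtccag
Cdk6: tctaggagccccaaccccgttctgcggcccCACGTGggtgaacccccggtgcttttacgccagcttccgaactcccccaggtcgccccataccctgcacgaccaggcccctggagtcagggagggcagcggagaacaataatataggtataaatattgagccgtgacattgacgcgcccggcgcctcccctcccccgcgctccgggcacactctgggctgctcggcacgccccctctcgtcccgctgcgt
The Cdk4 window held 4 CACGTG words, which read alike on both strands, at −172, −118, −98 and −11 from the start site, and the Cdk6 window held 1, at −220. The windows of Ccnd3 (both start sites), Ccne1 and E2f1 held none. The E2f1 window, at chr2:154569427-154569676 on the minus strand, also lies inside the GENCODE bounds of its gene. Bases upstream of those bounds were therefore not searched for E2f1. The window of start site 2 of Ccnd3 likewise lies inside its gene. At least 1 CACGTG was present in 6.02% of the 32851 windows of the same length. A count of 4 or more, a limit set by that of Cdk4 itself, was present in 7 of them, or 0.0213%. Of 20 genes with a window in the list of MYC targets described below, 4 held CACGTG, and no gene of that list was called by edgeR. Words of E2F, AP-1, CRE, TEAD, GC-box and CCAAT-box motifs were also searched for. No E2F, AP-1 or CRE word was found in the windows of the 5 genes. GC-box words stood in windows of Ccnd3, Cdk4, Ccne1 and E2f1, and TEAD and CCAAT-box words in a window of Ccnd3. These are matches of letters and not measured binding, and a part of MYC in the rise of Cdk4 was not tested.

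Ccne1, the gene of cyclin E1 (chromosome 7, 38097984 to 38107534, minus strand), had 2.66, 5.48, 7.86 and 3.53 CPM in CAPZ_KO 1 to 4, against 0.429, 3.09, 2.91 and 1.94 CPM in WT 1 to 4. CAPZ_KO 2, 3 and 4 lay above every WT library, and CAPZ_KO 1 lay below WT 2 and WT 3. The value of WT 1 rests on 4 reads. Its log2 fold change was 1.18 ± 0.494 (SE; 95% interval 0.08 to 2.28), with an edgeR adjusted p of 0.0809. By DESeq2 the adjusted p of Ccne1 was 0.0395, with a log2 fold change of 1.18. Ccne2, the gene of cyclin E2 (chromosome 4, 11191351 to 11204779, plus strand), had 1.31, 2.34, 4.72 and 2.30 CPM in CAPZ_KO 1 to 4, against 0.965, 2.63, 2.70 and 3.63 CPM in WT 1 to 4. No library but CAPZ_KO 3 lay above all of the other group. Its log2 fold change was 0.07 ± 0.443 (SE; 95% interval −0.92 to 1.05), with an edgeR adjusted p of 0.913. Per exon length, Ccne1 made up 70.9% ± 3.92 of both E cyclins in CAPZ_KO and 49.4% ± 12 in WT (SD, n = 4 each), without overlap of the groups.

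E2f1, the gene of a transcription factor that turns on replication genes (chromosome 2, 154559407 to 154569892, minus strand), had 7.98, 8.27, 11.2 and 6.29 CPM in CAPZ_KO 1 to 4, against 4.08, 3.36, 3.69 and 3.76 CPM in WT 1 to 4. WT libraries were close together, and the lowest CAPZ_KO library lay well above them. E2f1 rose by 1.18 ± 0.208 on the log2 scale (SE; 95% interval 0.72 to 1.64), with means of 8.44 ± 2.06 CPM in CAPZ_KO and 3.72 ± 0.295 CPM in WT (SD, n = 4 each) and an edgeR adjusted p of 0.00151. It kept its direction and its call in all 21 alternatives run, with log2 fold changes of 0.98 to 1.81 and adjusted p of 8.25e-06 to 0.00587. Rb1, the gene of the protein that holds E2F factors in check (chromosome 14, 73183673 to 73325822, minus strand), had 13.7, 12.3, 10.5 and 13.8 CPM in CAPZ_KO 1 to 4, against 7.40, 8.95, 8.45 and 11.5 CPM in WT 1 to 4. CAPZ_KO 3, which was highest in 7 of the other genes, was lowest in Rb1, and it alone of the CAPZ_KO libraries lay below WT 4. Its log2 fold change was 0.46 ± 0.171 (SE; 95% interval 0.08 to 0.85), with an edgeR adjusted p of 0.0515. By DESeq2 the adjusted p of Rb1 was 0.0431, and in the male libraries alone the edgeR adjusted p was 0.0464.

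Myc (chromosome 15, 61985391 to 61990374, plus strand) had 27.8, 39.0, 26.1 and 21.6 CPM in CAPZ_KO 1 to 4, against 5.04, 21.2, 26.4 and 18.7 CPM in WT 1 to 4. WT 1 lay far below the other WT libraries, and WT 3 lay within the CAPZ_KO range. The log2 fold change of Myc was 0.67 ± 0.401 (SE; 95% interval −0.23 to 1.57), with an edgeR adjusted p of 0.206. Without WT 1 it was 0.37, with an adjusted p of 0.189.

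Compared per exon length, the order of the first 4 genes was the same in both groups: Ccnd1, Cdk4, Myc and Ccnd3. In CAPZ_KO they stood at 67.3 ± 28.4, 19.8 ± 4.35, 10.5 ± 2.72 and 3.67 ± 0.495 CPM per kb, and in WT at 25.9 ± 16.6, 12.8 ± 1.20, 6.56 ± 3.35 and 3.96 ± 0.412 CPM per kb (SD, n = 4 each). Neighbours in this order overlapped in range between Cdk4 and Myc in CAPZ_KO, and between Ccnd1 and Cdk4 and between Myc and Ccnd3 in WT. E2f1 came next in CAPZ_KO, at 2.68 ± 0.654 CPM per kb, and stood below Rb1 and Ccnd2 in WT, at 1.18 ± 0.0936 CPM per kb (SD, n = 4 each). The ranges of E2f1, Ccnd2, Rb1 and Ccne1 overlapped from neighbour to neighbour in both groups. Cdk6 was lowest, at 0.261 ± 0.0436 CPM per kb in CAPZ_KO and 0.207 ± 0.0801 CPM per kb in WT (SD, n = 4 each).

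The level of change depended on how libraries were made comparable. Scaled by library sizes alone, the median of all genes tested was 0.622 on the log2 scale. Of the 10 genes, 9 were then called higher by edgeR at an adjusted p under 0.05, against 7665 of the 12985 genes tested. By the same rule 700 of all genes were called lower. Ccnd3 stood at 0.52 (edgeR adjusted p = 0.011) and Ccne2 at 0.67 (edgeR adjusted p = 0.209). Relative to that median, Ccnd1, E2f1 and Cdk4 lay at 1.37, 1.19 and 0.64 and Ccnd3 and Ccne2 at −0.10 and 0.05. The directions given here are therefore relative to the bulk of genes.

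**Figure D2:**
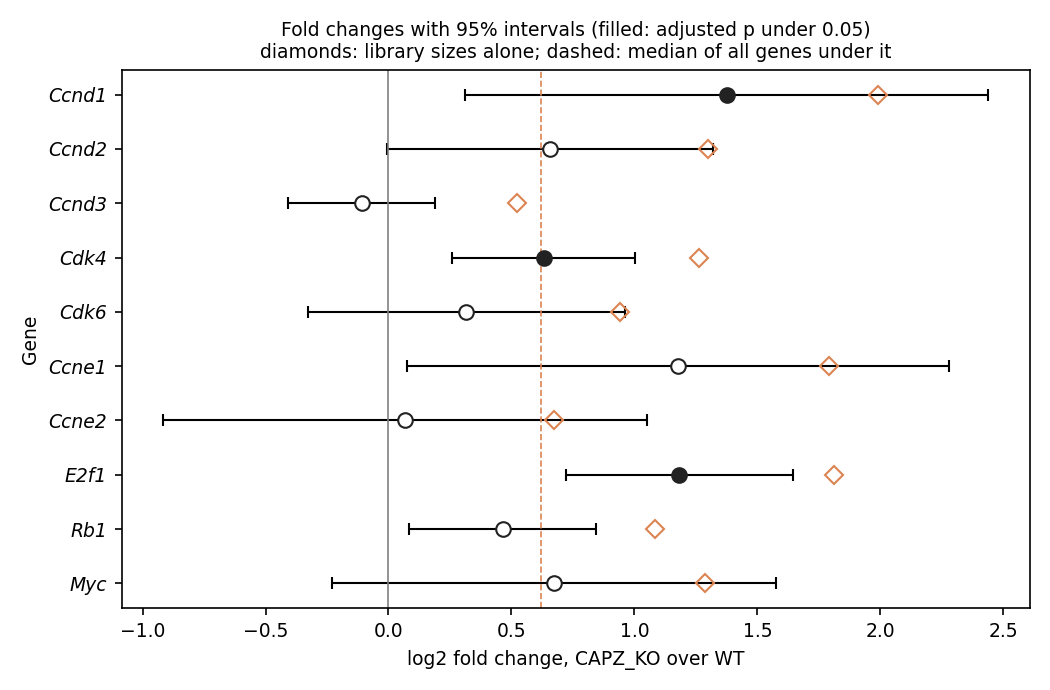
Log2 fold change of CAPZ_KO over WT for each gene after TMM scaling, with 95% intervals as bars and filled points for an edgeR adjusted p under 0.05. Open diamonds give the same under library sizes alone, and the dashed line at 0.622 gives the median of all genes under that scaling: the diamonds are moved right by about that amount for every gene.

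In the male libraries alone (3 against 3), Ccnd1 averaged 347.0 CPM in CAPZ_KO and 89.9 CPM in WT, without overlap, and Cdk4 averaged 70.6 and 40.7 CPM. The edgeR log2 fold changes were 1.94 for Ccnd1 (adjusted p = 0.0166), 0.87 for Ccnd2 (adjusted p = 0.0369), 0.79 for Cdk4 (adjusted p = 0.00441) and 1.30 for E2f1 (adjusted p = 0.00254). The female libraries, 1 in each group, stood at 227.1 CPM in CAPZ_KO 4 and 218.2 CPM in WT 4 for Ccnd1, at 46.2 and 44.3 CPM for Cdk4 and at 11.2 and 13.4 CPM for Ccnd2. E2f1 stood at 6.29 CPM in CAPZ_KO 4 and 3.76 CPM in WT 4. The difference between the sexes in the response was tested by an interaction term, chosen after these values were seen and with the lone female libraries assumed to vary like the others. The term was −1.89 ± 0.930 for Ccnd1 and −0.73 ± 0.316 for Cdk4 (SE, log2, female minus male), with an edgeR adjusted p of 1.0 for each of the 10 genes. That term was called in 0 of 12985 genes by edgeR, and 537 had an unadjusted p under 0.05.

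Ratios of 2 genes inside a library do not depend on scaling. By the exact two-sided permutation test of 4 against 4 libraries, whose smallest p is 0.0286, none of 8 ratios passed an adjusted p under 0.05 over the 8. With that smallest p and 8 ratios, a ratio whose groups stood fully apart could not pass alone. The lack of a pass therefore decides nothing about any 1 ratio. The groups did not overlap in 3 of them, each with an exact permutation p of 0.0286 and an adjusted p of 0.0762. The log2 ratio of Ccnd1 to Ccnd3 counts was 3.22 ± 0.381 in CAPZ_KO and 1.58 ± 1.03 in WT, and that of Ccne1 to Ccne2 was 0.89 ± 0.274 and −0.41 ± 0.672 (SD, n = 4 each). The log2 ratio of Ccnd1 to Cdkn1a, the gene of the inhibitor p21, was 1.05 ± 0.641 in CAPZ_KO and 4.6 ± 1.72 in WT (SD, n = 4 each), a difference of −3.55. It stood at 0.95, 0.90, 1.94 and 0.41 in CAPZ_KO 1 to 4, against 2.34, 6.50, 4.58 and 4.98 in WT 1 to 4. The other 5 ratios had adjusted p of 0.114 to 0.514 by the same exact permutation test, with differences of 0.95 for Ccnd1 to Ccnd2, 0.69 for Ccnd2 to Ccnd3, 0.67 for E2f1 to Rb1, 0.78 for Myc to Max and 0.22 for Cdk4 to Cdk6. Without WT 1 the difference for Myc to Max was 0.30, without CAPZ_KO 3 that for E2f1 to Rb1 was 0.44, and that for Cdk4 to Cdk6 was 0.03 without WT 2 and 0.45 without WT 1.

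**Figure D3:**
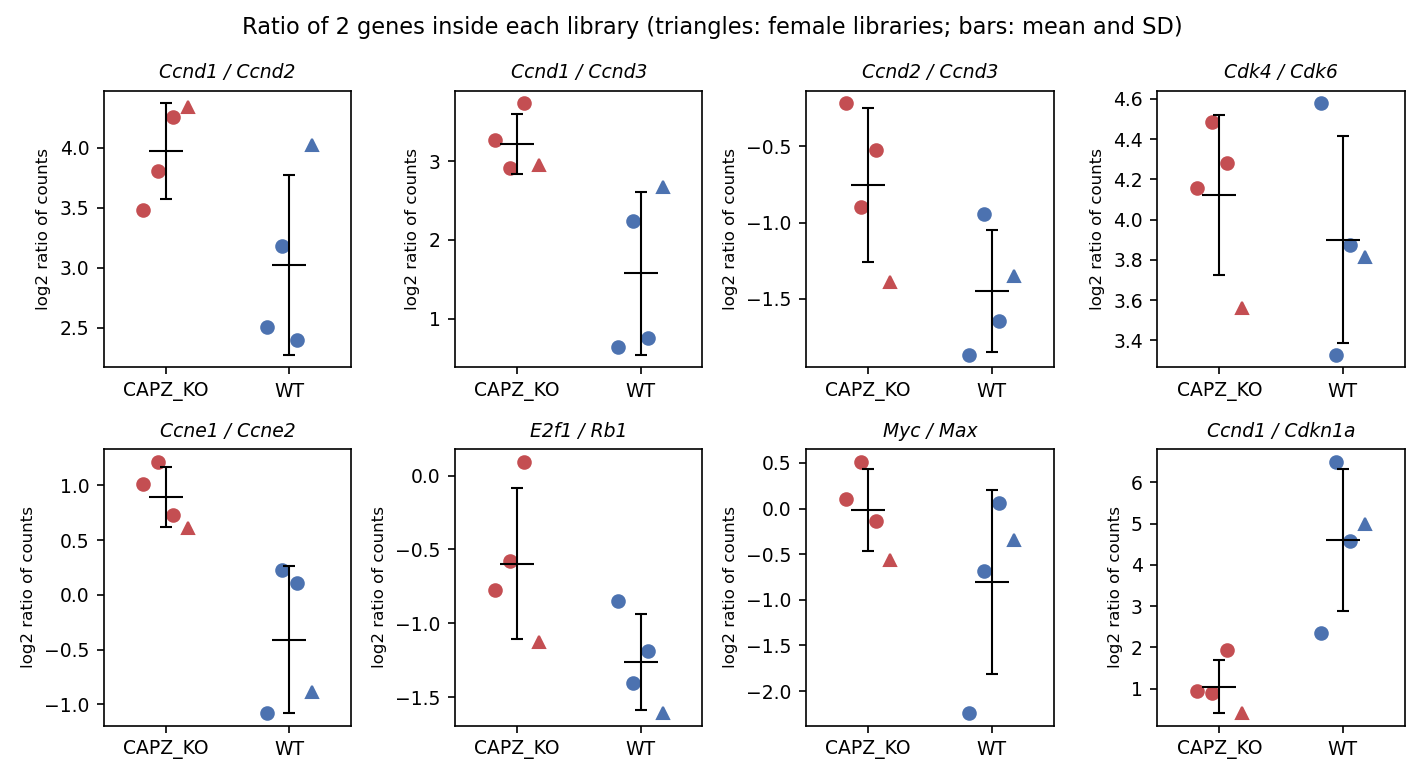
Log2 ratio of the counts of 2 genes inside each library, CAPZ_KO left of WT, with mean and SD as bars and female libraries as triangles; each panel has its own axis. The groups stand apart for Ccnd1 to Ccnd3, Ccne1 to Ccne2 and Ccnd1 to Cdkn1a, the last with CAPZ_KO below WT.

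Among inhibitors of the cyclin-dependent kinases, 2 of 6 tested rose and 0 fell (22.4% and 19% of all genes; no fall at an unadjusted p under 0.05, nor by DESeq2 or limma-voom), with a median log2 fold change of 0.17. Cdkn1a, induced by p53 among others, stood at 168.1, 113.7, 131.2 and 170.6 CPM in CAPZ_KO 1 to 4, against 12.2, 1.65, 2.27 and 6.87 CPM in WT 1 to 4, and rose by 4.71 ± 0.592 (SE, log2, edgeR adjusted p = 4.12e-04). Cdkn2b, the gene of the CDK4 and CDK6 inhibitor p15, rose by 2.42 ± 0.508 (SE, log2, edgeR adjusted p = 0.00397). It stood at 1.59 ± 0.569 CPM in CAPZ_KO and 0.283 ± 0.213 CPM in WT (SD, n = 4 each). Cdkn1b, Cdkn1c, Cdkn2c and Cdkn2d had log2 fold changes of −0.01, −0.16, 0.04 and 0.30, with edgeR adjusted p of 0.366 to 0.969. Cdkn2a had too few reads to be tested, at 0.335 CPM in CAPZ_KO and 0.244 CPM in WT on average.

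Of 11 other pocket protein and E2F genes, 4 rose and 2 fell (36.4% and 18.2%, against 22.4% and 19% of all genes), with a median of 0.12. Rbl1, the gene of the pocket protein p107, rose by 0.95 ± 0.226, while Rbl2, that of p130, which is typical of resting cells, fell by 0.81 ± 0.201 (SE, log2, edgeR adjusted p = 0.00734 and 0.00901). Rbl2 stood at 26.6, 25.5, 21.6 and 33.3 CPM in CAPZ_KO 1 to 4, against 32.0, 44.0, 58.6 and 53.4 CPM in WT 1 to 4, with CAPZ_KO 4 just above WT 1. The activators E2f2 and E2f3 rose by 1.27 and 0.70, and E2f7, a repressor, rose by 1.09 (edgeR adjusted p = 0.00643, 0.0156 and 0.0447). Tfdp2, a partner of E2F factors, fell by 0.65 (edgeR adjusted p = 0.0212), while its relative Tfdp1 had 0.37 (edgeR adjusted p = 0.086). E2f4, E2f5, E2f6 and E2f8 had 0.12, −0.48, 0.02 and −1.05, with edgeR adjusted p of 0.114 to 0.925. Under library sizes alone Rbl2 and Tfdp2 had −0.20 and −0.04, and neither was called.

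Of 14 other regulators of G1 cyclin complexes, 2 rose and 2 fell (14.3% each, against 22.4% and 19% of all genes), with a median of −0.006. Ccng1, the gene of cyclin G1 and a p53 target, rose by 1.32, and Cdc25a, the gene of a phosphatase that activates CDK2, rose by 0.64 (edgeR adjusted p = 0.00021 and 0.0429). Fbxo31, the gene of a ubiquitin ligase subunit reported to target cyclin D1, fell by 1.66 on the log2 scale (edgeR adjusted p = 0.00185). It stood at 22.3 ± 7.65 CPM in CAPZ_KO and 70.6 ± 24.4 CPM in WT (SD, n = 4 each). Ccnh, a subunit of the kinase that activates other cyclin-dependent kinases, fell by 0.45 (edgeR adjusted p = 0.0121), and had 0.18 under library sizes alone. Cdc37, a co-chaperone of CDK4 and the most abundant of this list, had −0.04 (edgeR adjusted p = 0.808).

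Of 26 E2F target genes of DNA replication, 14 rose and 3 fell, with a median of 0.73, against 22.4% and 19% of all genes. Genes of the helicase that opens DNA at origins rose by 2.03 (Mcm2), 2.10 (Mcm5) and 1.98 (Mcm6), and Gins2, which joins that helicase, by 2.51, with edgeR adjusted p of 4.7e-04 to 9.31e-04. Mcm6 stood at 28.5, 34.7, 45.8 and 18.2 CPM in CAPZ_KO 1 to 4, against 8.58, 10.1, 4.83 and 8.62 CPM in WT 1 to 4. CAPZ_KO 3 was highest and CAPZ_KO 4 lowest of the CAPZ_KO libraries in Mcm6, as in E2f1 and Cdk4. Mcm10, which helps to start replication, fell by 4.10 and Tk1, a thymidine kinase, fell by 1.08 (edgeR adjusted p = 2.81e-04 and 0.00479), and under library sizes alone Tk1 had −0.46 and was not called. Mcm10 stood at 5.2 ± 2.1 CPM in CAPZ_KO and 88.8 ± 49.1 CPM in WT (SD, n = 4 each), above Mcm6 in every WT library. Why Mcm10 was so high in WT was not tested. Exons of Tk1 overlap those of a gene on the opposite strand. A list of 9 proliferation markers shares 2 genes with the list of E2F targets. These 9 summed to 138.3, 29.8, 72.9 and 37.5 CPM in CAPZ_KO 1 to 4, against 17.9, 21.3, 10.4 and 14.1 CPM in WT 1 to 4. All 9 rose, and the libraries of both groups did not overlap in 4 of them (44.4%, against 40.3% of all genes). CAPZ_KO 1 was highest in these markers, while CAPZ_KO 3 was highest in Ccnd1 and E2f1.

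Of 26 MYC target genes of ribosome and nucleotide synthesis, none was called by edgeR, against 22.4% of all genes called higher and 19% lower. None of the 26 was called by DESeq2 or limma-voom or had an edgeR unadjusted p under 0.05, and their median was −0.09. The most abundant, Ldha, had 580.5 ± 67.8 CPM in CAPZ_KO and 762.7 ± 207.8 CPM in WT (SD, n = 4 each), a log2 fold change of −0.39 with an edgeR adjusted p of 0.144. Under library sizes alone 13 of the 26 were called higher, against 7665 of the 12985 genes tested. Without WT 1, 1 of the 26 was called higher and 1 lower. Of 11 genes tested in the MYC network, 2 rose and 2 fell (18.2% each, against 22.4% and 19% of all genes), with a median of −0.16. Leaving out 1 library at a time, 1 (without WT 2, WT 3, CAPZ_KO 1 or CAPZ_KO 2) to 4 (without WT 1) were called lower. Mnt and Mxd3, both antagonists of MYC that bind MAX, rose by 0.99 and 2.98 (edgeR adjusted p = 0.0145 and 0.00328), and Mxd3 stood at 1.09 ± 0.551 CPM in CAPZ_KO and 0.147 ± 0.12 CPM in WT (SD, n = 4 each). Mlxipl, the glucose-responsive factor ChREBP, fell by 2.22, and its partner Mlx by 0.42 (edgeR adjusted p = 2.63e-04 and 0.0257), with Mlx at 0.20 under library sizes alone. Max, the partner of MYC, had 0.09 (edgeR adjusted p = 0.665).

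Of 16 tested regulators of G1 cyclin and Myc transcription, 10 rose and 0 fell, against 22.4% and 19% of all genes, with a median of 1.30 (1 had a lower level at an unadjusted p under 0.05, 1 was called lower by DESeq2 and 0 by limma-voom). Klf6, Ets2, Jun and Fosl2, transcription factors induced by growth signals, rose by 2.64, 1.52, 2.43 and 1.13, with edgeR adjusted p of 1.87e-05 to 3.56e-04. Jun stood at 80.1 ± 13.8 CPM in CAPZ_KO and 14.8 ± 6.12 CPM in WT (SD, n = 4 each). Ctnnb1, the gene of beta-catenin, had 0.31 with an edgeR adjusted p of 0.135.

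**Figure D4:**
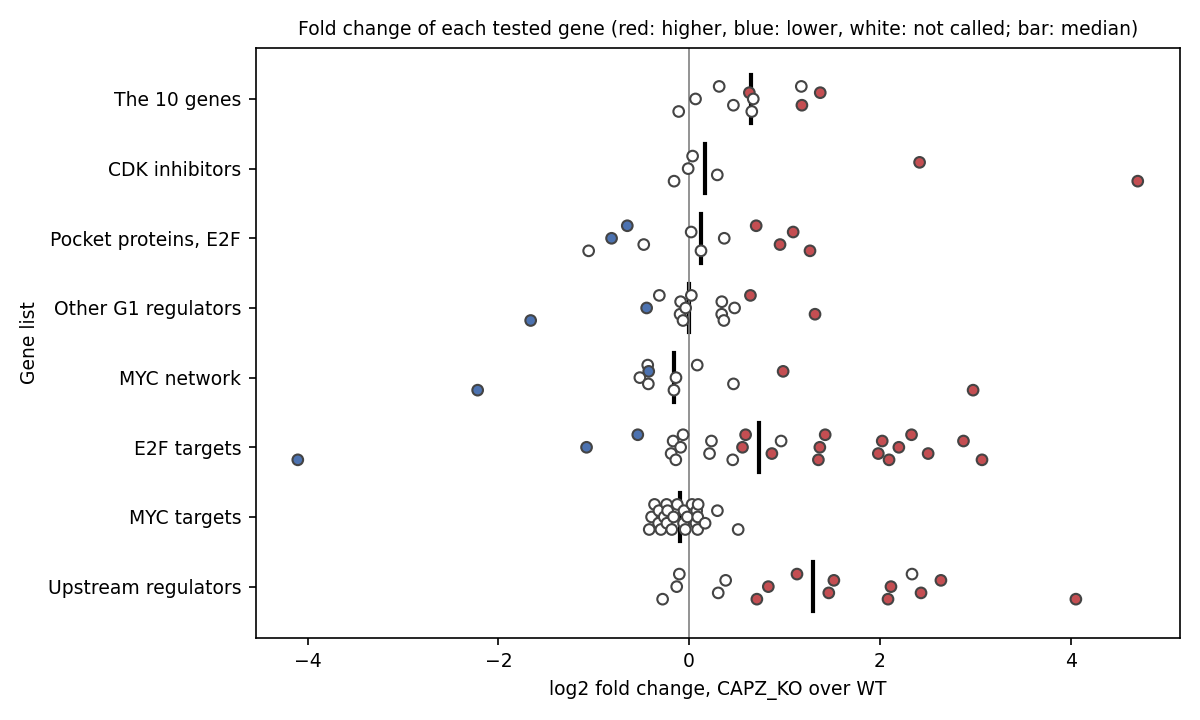
Log2 fold change of CAPZ_KO over WT for each tested gene of the 10 and of the 7 lists around them, 1 point per gene, with the median of each list as a bar (red higher, blue lower, white not called by edgeR). The 26 MYC target genes lie close to 0 with a median of −0.09, and the E2F targets range from −4.10 for Mcm10 to 3.07 for Uhrf1.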

How the data were processed

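The deposited table holds raw read counts per gene symbol in 8 liver libraries, not scaled to library size by the authors. Libraries were stranded, per the labels' protocols. The submitters' processing notes name mm10, edgeR, featureCounts, STAR 2.5.3a, bcl2fastq and R 3.3.1, without saying which did what. Annotation and strand setting: not given in the sources used here. A gene on the opposite strand shares exon bases with each of Ccnd1, Ccnd2, Ccnd3, Cdk4, Cdk6, Ccne2 and Rb1, so that the division of those reads is uncertain. The same holds for some genes of the lists, Tk1, Gins2, Rbl2, Ccnh, Mxd3 and Mlx among them.

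Genes were kept by filterByExpr (edgeR 4.0.16, minimum count 10, minimum total count 15), scaled by TMM (factors 1.18 to 1.33 in CAPZ_KO and 0.774 to 0.847 in WT) and tested by the robust quasi-likelihood test over all 8 libraries, with Benjamini-Hochberg adjustment (R 4.3.3). The fits were tested on simulated data. SE is the log2 fold change divided by the root of F. Intervals for fold changes are 95% intervals from the same fit. Alternatives were other scalings, filters, tests (DESeq2 1.42.0, limma-voom 3.58.1), a threshold of 0.01, sex as a term, a replicate block and leaving out libraries. Positions and exon lengths are from GENCODE vM21 (GRCm38), where 95.7% of symbols were found. Promoter windows are from RefSeq. Ratios are of counts plus an offset of 0.5. No library repeated another (chi-square over degrees of freedom 26.4 to 153 within groups).

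The 10 genes and the lists were chosen with earlier results of these data known. Named genes are the 10, all CDK inhibitors, pocket proteins and E2F genes, and, in other lists, up to 4 called genes per direction with the smallest p and the most abundant gene. Uhrf1, Tspan31, Max, Capzb, Alb, Xist and Spp1 were named for other reasons, with their values known. 1 gene that the rule names is not reported here.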

Additional observations from a re-analysis of the deposited data

Results flagged for a closer look

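In 36 groups of 4 libraries tested, those of the 10 genes and of the 8 ratios, 1 library stood apart from its group: Cdk6 was at 2.74 CPM in CAPZ_KO 2, against 3.89 to 4.05 CPM in the other CAPZ_KO libraries. The gap was 0.873 of the range of the group. Chance alone sets 1 library apart in about 1 in 20 such groups.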

How the results depend on the processing

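Of 209 results for the 10 genes under the alternatives, 179 kept direction and call. With library sizes alone, Ccnd2 (1.30), Cdk6 (0.94), Ccne1 (1.79), Rb1 (1.08) and Myc (1.29) were called and Ccnd3 turned to 0.52, so that 9 of the 10 were called higher, and 7665 of all genes were higher and 700 lower against 2913 and 2469 with TMM, since the median moved by 0.622. At a threshold of 0.01, Ccnd1 (1.38) and Cdk4 (0.63) were lost, which left 1 of the 10, with 1864 of all genes higher and 1439 lower. With DESeq2, Ccne1 (1.18) and Rb1 (0.44) were added, making 5, with 3023 of all 12985 genes called higher. Without female libraries, Ccnd2 (0.87) and Rb1 (0.55) were added, making 5, with 2742 of all 13056 genes called higher. Rb1 was also called with upper-quartile factors (0.54), a stricter filter of 50 counts (0.51) and sex as a term (0.48). Ccnd1 was lost with no filter (1.38). Ccne2 had −0.046 by limma-voom, and had too few counts under the stricter filter. Leaving out 1 library at a time gave 1.03 to 1.81 for Ccnd1, 0.41 to 0.85 for Ccnd2 (called without CAPZ_KO 4), −0.23 to −0.05 for Ccnd3, 0.48 to 0.76 for Cdk4, 0.14 (without WT 1) to 0.57 (without WT 2) for Cdk6, 0.37 to 0.91 for Myc, 0.37 to 0.59 for Rb1 (called without WT 4) and −0.38 to 0.29 for Ccne2 (−0.18 without WT 1 and −0.38 without CAPZ_KO 3), and 1 to 4 of the 10 were called higher, with 1 without CAPZ_KO 3. Of all genes, 2371 to 2964 were called higher when 1 library was left out. With the replicate block, Ccnd1 (1.51, edgeR adjusted p = 0.121) was lost and Ccne1 (1.27, edgeR adjusted p = 0.0104) was called. In that fit 1 MYC target was called higher, against 0. The labels do not say that the number pairs libraries, so it was not taken as a pairing. Deviations of same-numbered libraries from their group means had correlations of 0.244, 0.009, 0.066 and 0.303, which cannot decide whether they are paired. No ratio changed call or direction with an offset of 1. Leaving out 1 library left too few arrangements for the exact test of ratios, whose differences kept their sign. The difference for Myc to Max was 0.30 without WT 1, against 0.78, that for Cdk4 to Cdk6 was 0.03 without WT 2 to 0.45 without WT 1, against 0.22, and that for E2f1 to Rb1 was 0.44 without CAPZ_KO 3, against 0.67. Of 300 results for the lists and shares, 255 stayed within the limits set. With library sizes alone, counts of genes called higher were 4 for CDK inhibitors, 7 for pocket proteins and E2F genes, 10 for other G1 regulators, 5 for the MYC network, 13 for MYC targets and 16 for upstream regulators, and counts called lower were 0 for pocket proteins and E2F genes and 1 each for other G1 regulators, the MYC network and E2F targets. Genes of the MYC network called lower were 4 without WT 1 and 1 without any of WT 2, WT 3, CAPZ_KO 1 and CAPZ_KO 2, against 2. Without WT 1, 1 MYC target was called higher and 1 lower, against 0 each. Without CAPZ_KO 3, 2 pocket protein and E2F genes were called higher, against 4, and without WT 4, 1 was called lower, against 2. Other G1 regulators called higher were 1, against 2, without any library but CAPZ_KO 4 or WT 2. Without division by length Ccnd1 made up 85.1% of D cyclin counts in CAPZ_KO and 67.2% in WT. Low counts limit Ccne1, Ccne2 and Cdk6 most. Except for library sizes, filters and left-out libraries, the cause was not tested.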
